A study of Homo sapiens with 6 samples.

Results

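Nascent transcription of 9 genes of the p53 network was examined: TP63 and TP73, the p53 family members in the set, and the p53 target genes MDM2, PMAIP1, BBC3, BAX, DDB2, TP53I3 and GDF15. They were taken by symbol from a table of 25827 features, and each of the 9 symbols matched 1 feature. The libraries were made by PRO-seq, which sequences the RNA that engaged RNA polymerases extend in permeabilized cells, from SBC-3 cells, which derive from a small cell lung carcinoma and have the genotype given as WT in the control libraries and as SFPQ knockdown in the others. Cells received either of 2 siRNAs against SFPQ, named siSFPQ-2 and siSFPQ-3, or a control siRNA, siCtrl, by reverse transfection at 10 nM, and were harvested after 72 h. Each group had 2 libraries, so 4 siSFPQ libraries were set against 2 siCtrl libraries. SFPQ encodes a nuclear RNA-binding and DNA-binding protein of paraspeckles. All 3 groups therefore shared the cell line, the transfection and the harvest time. Nothing in the labels states whether libraries of 1 group are separate cultures, and p-values therefore rest on a spread between libraries that may be technical.

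As background, p53 is a transcription factor that is stabilised by DNA damage and other stress, and it binds a pair of short half-sites near its target genes. Among its targets are genes of the mitochondrial apoptosis pathway, where BH3-only proteins release BAX and related proteins to open the outer membrane, genes of cell cycle arrest and of DNA repair, and MDM2, the ubiquitin ligase that marks p53 for degradation and so closes a feedback loop. p63 and p73 share its DNA-binding fold: p63 is best known from stratified epithelia and p73 from multiciliated cells and neurons, and both have longer and shorter isoforms made from separate promoters.

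The 6 libraries held 12072813 to 18475158 whole reads, and 1 read was worth 0.797 to 1.11 of the normalized reads used here. Of the 25827 features, 21773 reached 10 normalized reads in at least 2 libraries and were tested. SFPQ itself had 1825, 1972, 1922 and 2466 normalized reads in the siSFPQ libraries, against 2294 and 2435 in the siCtrl libraries, with a log2 fold change of -0.22 that was not called (limma, adjusted p = 0.137). An siRNA acts on mature RNA, so this value does not measure the knockdown. Of 12 markers of small cell lung cancer fixed for the check, 8 were in the table, and their summed level was 5353 to 6124 in siSFPQ libraries and 3608 to 4065 in siCtrl libraries. Of the 7 tested, 1 was called higher and 2 lower, with a median log2 fold change of -0.54, so most did not follow the sum. CHGA, a granule protein of neuroendocrine cells, was under 10 in every library, and YAP1, which marks a non-neuroendocrine class of these tumours, supplied most of the sum, with means of 5121 in siSFPQ and 3084 in siCtrl libraries. The other means were 292 in siSFPQ and 254 in siCtrl libraries for SYP, 208 and 188 in the same order for BEX1, 84.6 and 124 for POU2F3 and 71.8 and 127 for DLL3, and those of CHGB and NEUROD1 lay under 30 in both groups. Of 6 epithelial markers, 4 were in the table, and their sum was 2254 to 2762 in siSFPQ libraries and 994 to 1089 in siCtrl libraries. Of these 4, 2 were called higher and 1 lower. The sums for 3 of 7 fibroblast markers were 508 to 639 in siSFPQ libraries and 316 to 334 in siCtrl libraries, and 1 of these 3 was called higher (33.3%) and 0 lower. TEK, which was the 1 of 6 endothelial markers in the table, had 88.2 to 145 in siSFPQ libraries and 38.3 to 48.7 in siCtrl libraries. CD68, which was the 1 of 7 immune markers in the table, had 434 to 710 in siSFPQ libraries and 730.0 to 740.4 in siCtrl libraries. The part of these markers in the results below was not tested. All 6 libraries came from SBC-3 cells. In such bulk libraries a change in the share of cells with a marker and a change per cell cannot be told apart.

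The promoters were searched for the letters that p53 is known to bind. Sequences from RefSeq (GRCh38.p14), covering 250 bases before to 50 after each annotated start, were found for all 9 genes, with 15 promoters in all. Both strands were read for the best match to the p53 consensus, which has 20 letters in half-sites of 10, allowing a spacer of at most 1 base between them. The 4 promoter sites below were among the closest matches and come from genes that moved in both directions. Capitals mark the letters that match the consensus.
DDB2, chr11:47214979-47214999: GAACAAGCCCtGGGCATGTTT
MDM2, chr12:68808923-68808942: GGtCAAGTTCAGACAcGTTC
TP73, chr1:3690596-3690615: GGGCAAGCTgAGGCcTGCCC
GDF15, chr19:18386186-18386205: AGcCATGCCCGGGCAAGaaC

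The DDB2 site matched all 20 letters around a spacer of 1 base and began at base 6 after its second annotated start, and 7 of 35116 promoters in the table (0.0199%) had such a match. The MDM2 site, in the second of its promoter regions, and the TP73 site, in its second promoter, each matched 18 letters. A match of at least 18 letters was found in 1.34% of all promoters. The GDF15 site matched 17 letters and began at base 29 after the start. At least 17 letters were matched in 9.75% of all promoters. PMAIP1 also reached 17, as many as GDF15, but its site is not shown above. The best sites of BAX and TP63 matched 16 letters and those of BBC3 and TP53I3 matched 15. These are matches of letters, and binding was not measured here.

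Among the 9 genes, 4 rose after SFPQ knockdown and 4 fell, and BAX was not called, in a limma fit of log2(normalized reads + 1) over all 6 libraries. Over all tested features 48.0% were called, 24.8% as higher and 23.2% as lower, so a call in this comparison was common. PMAIP1, BBC3, MDM2 and GDF15 were higher with the siRNAs against SFPQ, and TP63, TP73, DDB2 and TP53I3 were lower. The median log2 fold change of the 9 genes was -0.21, beside -0.02 over all tested features. None of the 9 genes had siSFPQ values that overlapped the siCtrl values, which was also so for 61.3% of tested features. Fold changes below compare the mean of both siSFPQ groups with siCtrl on this log2 scale, which understates the change of genes with few reads, and adjusted p-values are Benjamini-Hochberg values over all tested features.

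**Figure D1:**
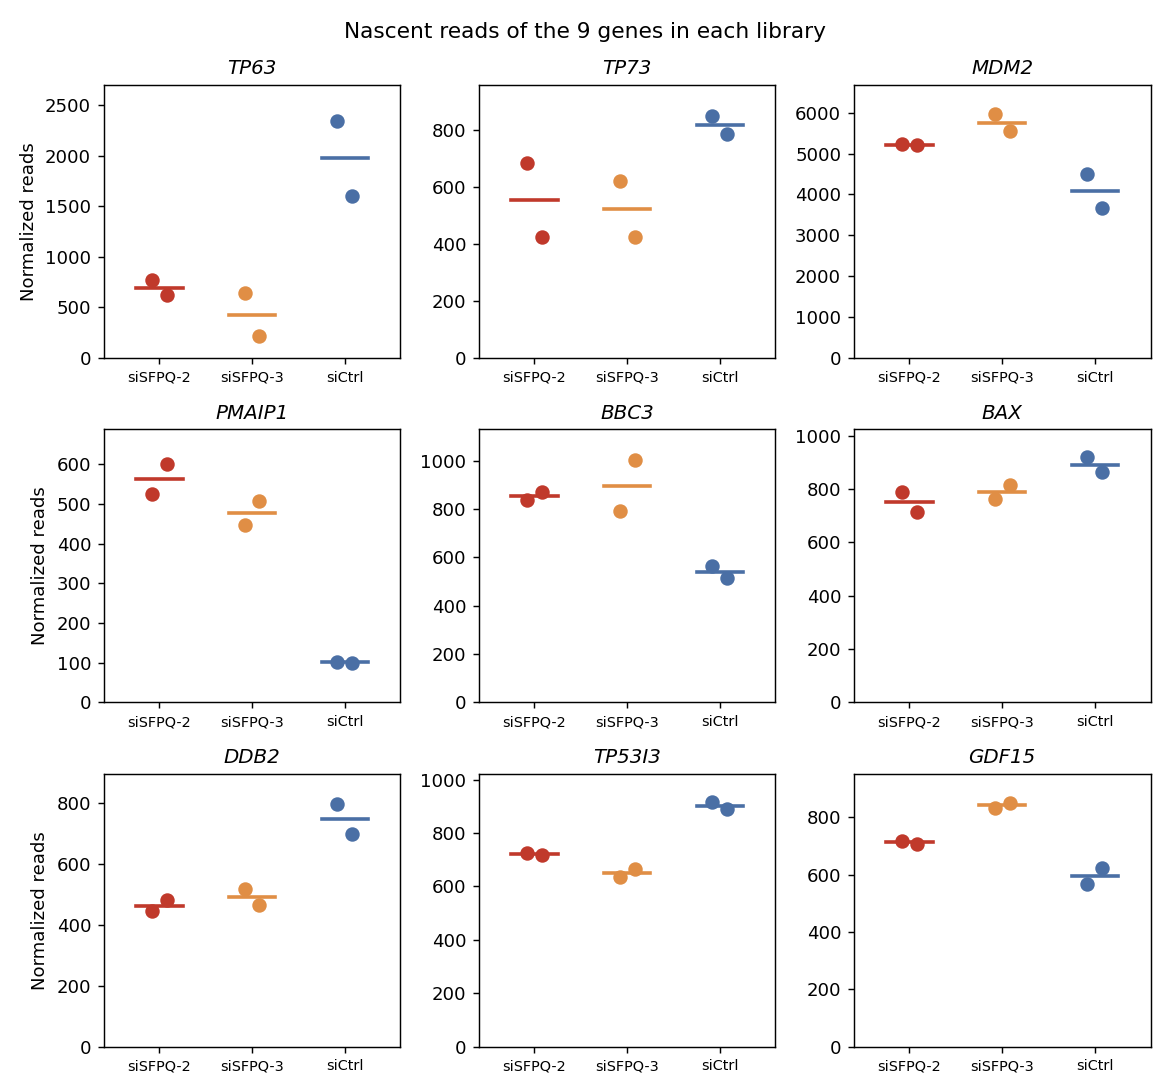
Normalized reads (y axis, from 0) of each of the 9 genes in the siSFPQ-2, siSFPQ-3 and siCtrl libraries, with 1 point per library and a bar at the group mean. PMAIP1 lay at 447 to 600.2 in siSFPQ libraries and at 99.7 and 102 in siCtrl libraries, whereas TP63 lay at 213 to 768 in siSFPQ libraries and at 1599 and 2349 in siCtrl libraries.

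TP63 encodes p63, the family member that maintains basal cells of stratified epithelia, and it lies on chromosome 3 from 189596746 to 189897276 on the plus strand, the longest of the 9 genes. It had 768 and 622 normalized reads in the siSFPQ-2 libraries and 638 and 213 in the siSFPQ-3 libraries, against 2349 and 1599 in the siCtrl libraries. All 4 siSFPQ libraries were below both siCtrl libraries, the second siSFPQ-3 library was the lowest of all, and both the siSFPQ-3 and the siCtrl pairs were wide apart. The mean was 560.3 ± 241 (SD, n = 4) with siSFPQ and 1974 ± 530.4 (SD, n = 2) with siCtrl, a log2 fold change of -1.94 (SE 0.33; limma, adjusted p = 8.44e-04), or 3.83-fold lower. Without any single library the value lay between -1.54 and -2.33, and it was -1.54 without the second siSFPQ-3 library (limma, adjusted p = 5.45e-06). Per kilobase of gene the level was low in both groups, at 1.86 normalized reads with siSFPQ and 6.57 with siCtrl.

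TP73 encodes p73, the family member needed for multiciliated cells, and lies on chromosome 1 from 3652516 to 3736201 on the plus strand. It had 684 and 424 normalized reads under siSFPQ-2 and 622 and 425 under siSFPQ-3, against 850.4 and 787 under siCtrl. The siSFPQ libraries were all lower, and within each siRNA the first library was nearer to siCtrl than the second. The log2 fold change was -0.63 (SE 0.19; limma, adjusted p = 0.0182), with means of 539 ± 134 (SD, n = 4) for siSFPQ and 818 ± 45.1 (SD, n = 2) for siCtrl. With the first siCtrl library left out the call was lost (-0.58, limma, adjusted p = 0.144), as it was with the second left out (-0.69, limma, adjusted p = 0.0922). The gene overlaps the antisense genes TP73-AS3 and TP73-AS2 and, at its end, TP73-AS1, whose RefSeq symbol is now GFOD3P. The use of strand in counting is not stated, so reads of these genes and of TP73 may be mixed. TP73-AS1 fell too, with 237 to 257 normalized reads in siSFPQ libraries, 343 and 360.2 in siCtrl libraries and a log2 fold change of -0.52 (limma, adjusted p = 0.00352).

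MDM2, the ubiquitin ligase of the p53 feedback loop, lies on chromosome 12 from 68808172 to 68850686 on the plus strand. It had 5240.5 and 5200.0 normalized reads under siSFPQ-2 and 5959 and 5561 under siSFPQ-3, against 4490.1 and 3659 under siCtrl. It had more reads than any other of the 9 genes in every library, and the siSFPQ libraries were all above siCtrl. The log2 fold change was 0.44 (SE 0.12; limma, adjusted p = 0.00992), or 1.35-fold, and without the second siCtrl library it was 0.29 and no longer called (limma, adjusted p = 0.150). The end of MDM2 is overlapped on the other strand by CPM, a carboxypeptidase gene. CPM had 471 to 783 normalized reads in siSFPQ libraries and 171 and 194 in siCtrl libraries, and rose by a log2 fold change of 1.76 (limma, adjusted p = 8.61e-07). The part of CPM reads in the MDM2 value was not tested.

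PMAIP1 encodes NOXA, a BH3-only protein that neutralises the survival protein MCL1, and lies on chromosome 18 from 59899996 to 59904305 on the plus strand. It changed more than any other of the 9 genes. It had 524 and 600.2 normalized reads under siSFPQ-2 and 447 and 508 under siSFPQ-3, against 102 and 99.7 under siCtrl. The 2 siCtrl libraries were close to each other, and the lowest siSFPQ library was far above both. The mean was 520.0 ± 62.8 (SD, n = 4) with siSFPQ and 100.9 ± 1.63 (SD, n = 2) with siCtrl. This was a log2 fold change of 2.35 (SE 0.12; limma, adjusted p = 2.81e-07), or 5.09-fold, and it lay between 2.30 and 2.40 under every alternative run. Per kilobase, the level was 121 normalized reads with siSFPQ and 23.4 with siCtrl.

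The PMAIP1 promoter, chr18:59899746-59899995 on the plus strand (GRCh38.p14), is printed because this gene had the largest change. Capitals mark matches to the GC box GGGCGG and to TGACG, the CRE half-site read by ATF and CREB proteins, on either strand. The best p53 match of this promoter, with 17 of 20 letters, began at -185 (chr18:59899811-59899830) and is not in capitals.
PMAIP1: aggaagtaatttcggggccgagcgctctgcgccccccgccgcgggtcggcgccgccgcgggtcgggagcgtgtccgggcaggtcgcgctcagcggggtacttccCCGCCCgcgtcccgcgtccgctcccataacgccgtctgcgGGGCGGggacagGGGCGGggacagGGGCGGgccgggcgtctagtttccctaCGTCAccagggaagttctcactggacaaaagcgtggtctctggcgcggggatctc

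The 4 GC boxes began at -146, -106, -94 and -82 from the start, the first of them on the other strand, and the CRE half-site lay at -55 on the other strand. A GC box was present in 45.0% of all promoters and a CRE half-site in 24.6%, so both are frequent. ATF4, the stress factor for which CRE-like sites are known, was not called (log2 fold change -0.25, limma, adjusted p = 0.0745). Nascent reads do not measure its protein, and its part in the PMAIP1 rise was not tested. Of 13 genes listed as ATF4 and stress response genes, ATF4 included, 3 rose (23.1%) and 2 fell (15.4%), with a median log2 fold change of 0.02. Neither share was above that over all tested features, 24.8% higher and 23.2% lower. SLC7A11, the cystine transporter, had the smallest p in this list, at 1349 ± 63.9 normalized reads (SD, n = 4) with siSFPQ and 212 ± 55.3 (SD, n = 2) with siCtrl, a log2 fold change of 2.69 (limma, adjusted p = 2.79e-07). ATF3, a stress-induced transcription factor, rose by 0.40 (limma, adjusted p = 0.00851), and VLDLR, a lipoprotein receptor, by 0.56 (limma, adjusted p = 0.0113). Neither call held without the second siCtrl library (adjusted p = 0.132 for ATF3 and 0.181 for VLDLR). DDIT4, an inhibitor of mTORC1 signalling, fell by 1.00 on the log2 scale (limma, adjusted p = 1.18e-05), and PSAT1, an enzyme of serine synthesis, fell by 1.26 (limma, adjusted p = 1.93e-04).

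BBC3 encodes PUMA, the other BH3-only protein of the set, and lies on chromosome 19 from 47220824 to 47232860 on the minus strand. It had 835 and 869 normalized reads under siSFPQ-2 and 792 and 1002 under siSFPQ-3, against 562 and 515 under siCtrl. The lowest siSFPQ library was above the higher siCtrl library. BBC3 rose by a log2 fold change of 0.69 (SE 0.11; limma, adjusted p = 6.06e-04), or 1.62-fold.

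BAX, the pore-forming protein on which BH3-only proteins act, lies on chromosome 19 from 48954875 to 48961798 on the plus strand. It had 788, 713, 761 and 814 normalized reads in the siSFPQ libraries, against 920.5 and 864 in the siCtrl libraries. These values did not overlap, yet the log2 fold change of -0.21 (95% interval -0.43 to -0.00) was not called (limma, adjusted p = 0.0860). Of the 3 apoptosis genes in the set, the BH3-only pair was thus higher after knockdown and BAX was not called.

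DDB2, the damage-recognition subunit of nucleotide excision repair that binds ultraviolet lesions, lies on chromosome 11 from 47214454 to 47239217 on the plus strand. It had 445 and 482 normalized reads under siSFPQ-2 and 516 and 467 under siSFPQ-3, against 796 and 698 under siCtrl. The highest siSFPQ library was well below the lower siCtrl library. The log2 fold change was -0.64 (SE 0.11; limma, adjusted p = 6.55e-04), or 1.56-fold lower. The gene with the full 20-letter match in a promoter was among those that fell, and the part of this site was not tested.

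TP53I3 encodes PIG3, a quinone oxidoreductase linked to oxidative stress, and lies on chromosome 2 from 24077433 to 24084834 on the minus strand. It had 725 and 719 normalized reads under siSFPQ-2 and 635 and 666 under siSFPQ-3, against 914 and 889.5 under siCtrl. The siSFPQ libraries were all lower. PIG3 transcription fell, with a log2 fold change of -0.40 (SE 0.090; limma, adjusted p = 0.00451), and with the first siCtrl library left out it was -0.38 and not called (limma, adjusted p = 0.0592). TP53I3 lies inside FAM228B, a gene on the other strand, which fell as well, with 486 to 603 normalized reads in siSFPQ libraries and 834 and 845 in siCtrl libraries (log2 fold change -0.56, limma, adjusted p = 0.00149). How reads of the overlap were divided is not stated.

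GDF15, a secreted cytokine of the TGF-beta superfamily induced by cell stress, lies on chromosome 19 from 18386158 to 18389176 on the plus strand. It had 719 and 708 normalized reads under siSFPQ-2 and 832 and 851 under siSFPQ-3, against 568 and 625 under siCtrl. All siSFPQ libraries were above both siCtrl libraries, and the siSFPQ-3 pair was above the siSFPQ-2 pair. The rise was 0.38 on the log2 scale (SE 0.094; limma, adjusted p = 0.00700), and with the first siCtrl library left out it was 0.31 and not called (limma, adjusted p = 0.101). Per kilobase GDF15 had the highest level of the 9 genes, at 258 normalized reads with siSFPQ and 198 with siCtrl.

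In the authors' deposited table the log2 fold changes were 2.36 for PMAIP1 and -1.82 for TP63, siSFPQ over siCtrl. There, in the authors' deposited table, the same 8 genes had an adjusted p under the threshold of 0.05, and BAX had 0.192.

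Each siRNA was next set against siCtrl in the same fit, and these comparisons share the siCtrl libraries. With siSFPQ-2, 2 of the 9 genes were called higher and 3 lower, beside 39.2% of all tested features called, 21.2% higher and 17.9% lower. PMAIP1 rose by 2.46 (limma, adjusted p = 1.14e-06) and BBC3 by 0.66 (limma, adjusted p = 0.00261), while DDB2 fell by 0.69 (limma, adjusted p = 0.00149), TP63 by 1.49 (limma, adjusted p = 0.0111) and TP53I3 by 0.32 (limma, adjusted p = 0.0319), all on the log2 scale. MDM2 at 0.36 (adjusted p = 0.0502), TP73 at -0.60 (adjusted p = 0.0504), GDF15 at 0.26 (adjusted p = 0.0797) and BAX at -0.25 (adjusted p = 0.0953) were not called by limma. MDM2 and TP73 lay at the threshold and were called under several alternatives: MDM2 with DESeq2 (adjusted p = 0.0287), edgeR (adjusted p = 0.0486), equal totals (adjusted p = 0.0462) and the replicate number as a block (adjusted p = 0.0152), and TP73 with DESeq2 (adjusted p = 0.0398) and the block (adjusted p = 0.00127). GDF15 was called with the block (adjusted p = 0.0475). The siSFPQ-2 call of TP63 did not hold when the first siCtrl library (adjusted p = 0.116) or the second siSFPQ-2 library (adjusted p = 0.0540) was left out, nor with DESeq2 on whole reads (adjusted p = 0.0563). That of TP53I3 did not hold when either siCtrl library (adjusted p = 0.160 and 0.121) or either siSFPQ-2 library (adjusted p = 0.0856 and 0.122) was left out, nor with DESeq2 (adjusted p = 0.0771).

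With siSFPQ-3, 4 of the 9 genes were called higher and 4 lower, beside 43.4% of all tested features called, 23.0% higher and 20.4% lower. The rises on the log2 scale were 2.23 for PMAIP1 (limma, adjusted p = 1.35e-06), 0.73 for BBC3 (limma, adjusted p = 0.00138), 0.51 for MDM2 (limma, adjusted p = 0.0111) and 0.50 for GDF15 (limma, adjusted p = 0.00413). The log2 fold changes of the genes that fell were -2.39 for TP63 (limma, adjusted p = 6.99e-04), -0.67 for TP73 (limma, adjusted p = 0.0302), -0.60 for DDB2 (limma, adjusted p = 0.00284) and -0.47 for TP53I3 (limma, adjusted p = 0.00458). BAX, at -0.18, was not called (limma, adjusted p = 0.211). The TP73 call did not hold when either siCtrl library (adjusted p = 0.161 and 0.110) or the second siSFPQ-3 library (-0.40, adjusted p = 0.174) was left out. The MDM2 call was lost without the second siCtrl library (adjusted p = 0.114) and that of GDF15 without the first (adjusted p = 0.0536).

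**Figure D2:**
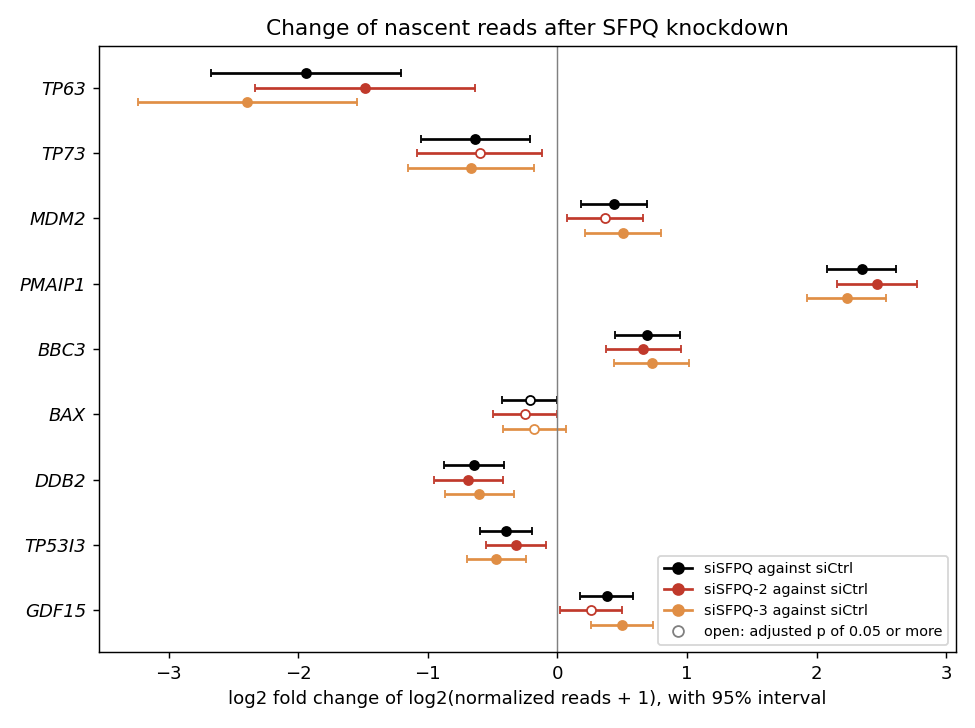
Log2 fold change of normalized reads (x axis, with 95% intervals) of the 9 genes for both siRNAs together, for siSFPQ-2 and for siSFPQ-3, each against siCtrl; open points had an adjusted p of 0.05 or more. Each gene had the same sign with both siRNAs, from -2.39 for TP63 with siSFPQ-3 to 2.46 for PMAIP1 with siSFPQ-2, and the BAX points were open in all 3 comparisons.

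The siRNAs were also compared with each other, siSFPQ-3 against siSFPQ-2. By limma 0 of the 9 genes were called, beside 0.101% of all tested features, 0.0781% as higher and 0.0230% as lower. TP63, the 1 gene of the 9 below 0.05 before adjustment, had a log2 fold change of -0.91 (95% interval -1.75 to -0.06; limma, adjusted p = 0.366). It was called without the first siSFPQ-3 library (-1.70, limma, adjusted p = 0.00459), when the lone siSFPQ-3 library was assumed to vary like the other groups. GDF15 had a difference of 0.24 (limma, adjusted p = 0.399). The intervals of these differences were wide, and a p above the threshold does not show that the siRNAs act alike.

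The deposited profiles give the signal of each library in 500 bins along every gene, taken here as 100 bins before, 300 in and 100 after the gene. The start window was the first 15 gene bins and the body was gene bins 31 to 300, and each was compared on a log2 scale with limma over 28917 genes. Profiles come from the same libraries as the normalized reads and are no independent measurement. In the gene body 4 of the 9 genes were called higher and 3 lower, beside 20.1% of all genes higher and 9.86% lower. In the start window 1 was called higher and 2 lower, beside 5.65% of all genes higher and 7.89% lower. The median log2 fold change over all genes was 0.09 in the body and -0.13 in the start window.

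PMAIP1 had body signal of 82.8 and 89.5 in the siSFPQ-2 libraries and 69.9 and 69.7 in the siSFPQ-3 libraries, against 8.41 and 6.16 in the siCtrl libraries. The body signal was thus several times that of siCtrl in every siSFPQ library, with a log2 fold change of 3.40 (SE 0.15; limma, adjusted p = 5.18e-04). The start signal was 628, 905, 522 and 687 in the siSFPQ libraries, against 199 and 209 in the siCtrl libraries. Its log2 fold change was 1.72 (limma, adjusted p = 0.0133), and this call was lost without every single library except the first siSFPQ-3 library (adjusted p = 0.0516 to 0.128). The start signal was 7.47 to 10.1 times the body signal in siSFPQ libraries and 23.6 and 34.0 times in siCtrl libraries, without overlap. This ratio also did not overlap in GDF15, BAX and TP73, where it was lower with siSFPQ, and in TP63, where it was higher. The share of all genes without overlap was not counted. The log2 fold change of the PMAIP1 ratio was -1.68 (SE 0.23; limma, adjusted p = 0.0498), beside a median of -0.21 over all genes. It was the 1 call among the 9 genes, beside 0.412% of genes called higher and 1.41% called lower. The ratio stayed negative under every alternative (-0.94 with the largest pseudocount), but the call was lost when any library was left out (adjusted p = 0.108 to 0.211).

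**Figure D3:**
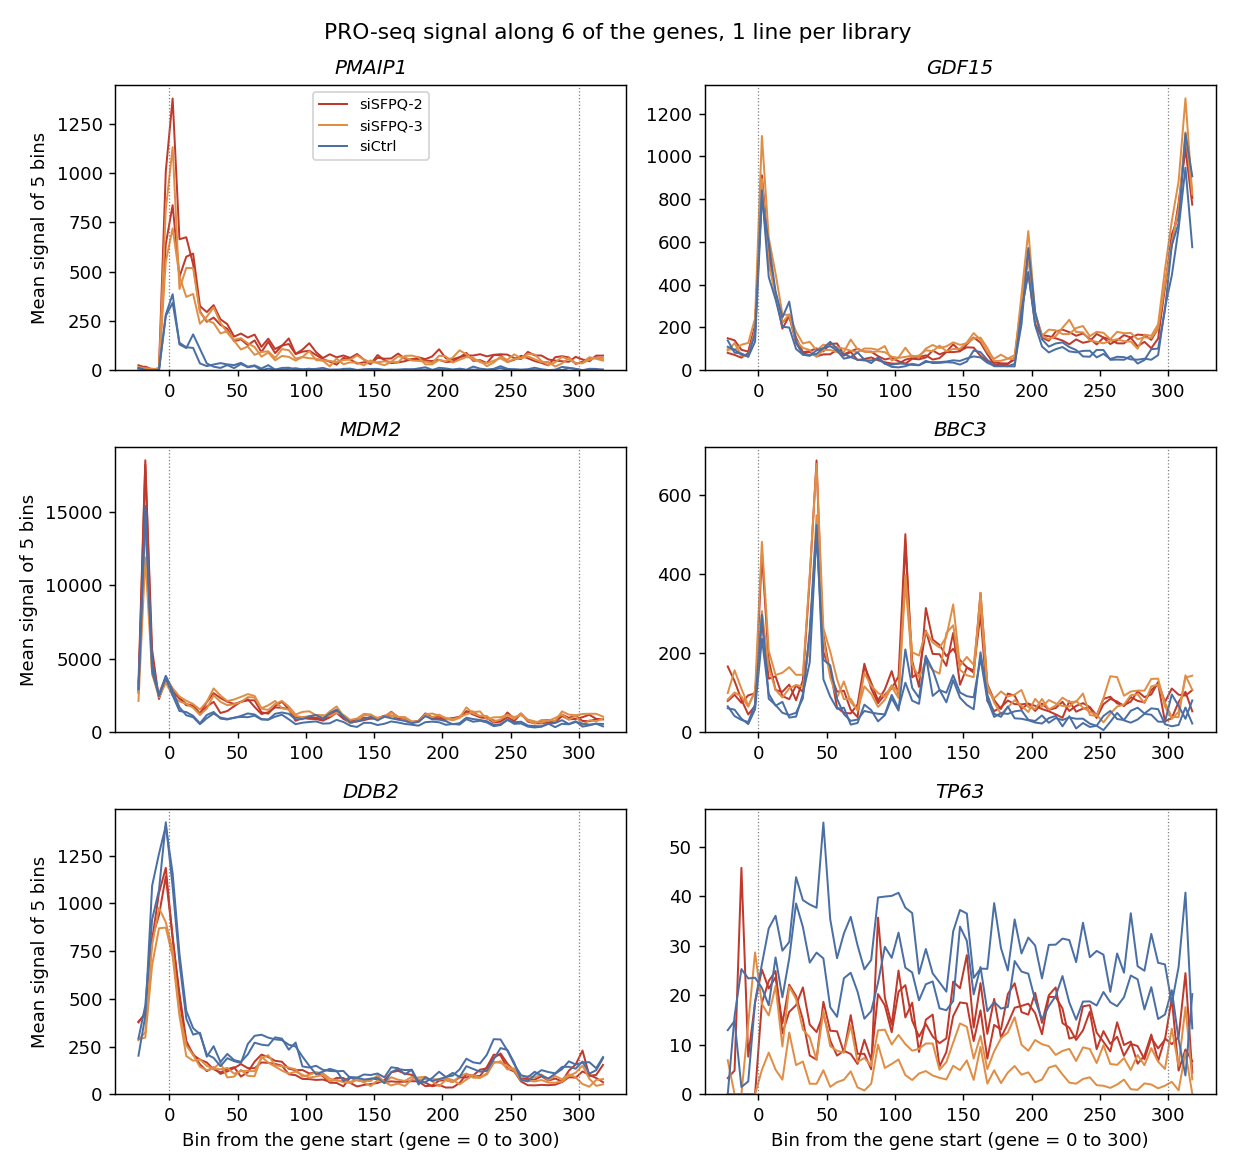
Signal along PMAIP1, GDF15, MDM2, BBC3, DDB2 and TP63 (y axis, mean of 5 bins; x axis, bin from the gene start, with the gene between the dotted lines at 0 and 300), with 1 line per library in the siSFPQ-2, siSFPQ-3 and siCtrl groups. In PMAIP1 the siSFPQ lines stay above siCtrl along the whole gene, with a body signal of 69.7 to 89.5 in siSFPQ libraries and 6.16 and 8.41 in siCtrl libraries.

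The other genes that rose had smaller differences along the gene. GDF15 had body signal of 122, 114, 142 and 139 in siSFPQ libraries, against 76.1 and 83.0 in siCtrl libraries, without overlap (log2 fold change 0.70, limma, adjusted p = 0.00479). Its start signal overlapped between groups, at 565 to 723 in siSFPQ libraries and 536 and 589.8 in siCtrl libraries (log2 fold change 0.13, limma, adjusted p = 0.519). BBC3 had body signal of 123 to 149.9 in siSFPQ libraries and 72.8 and 78.3 in siCtrl libraries (log2 fold change 0.82, limma, adjusted p = 0.00553). Its tallest bin was gene bin 41 in every library, so the main signal peak of BBC3 lay inside the annotated gene and outside the start window.

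MDM2 had body signal of 1141 to 1312 in siSFPQ libraries and 694 and 870.3 in siCtrl libraries, and rose by a log2 fold change of 0.65 (limma, adjusted p = 0.0161). The call was lost without the second siCtrl library (adjusted p = 0.0830) and without the second siSFPQ-2 library (adjusted p = 0.0523). The bins before the gene start held more signal than the gene, at 4197 to 5432 in siSFPQ libraries and 5853 and 6181 in siCtrl libraries. There the siSFPQ libraries were below both siCtrl libraries, the reverse of the body. This difference was not tested, and the share of all genes with such a difference was not counted. Summed over all genes, signal before the start was 2316532 to 2749021 in siSFPQ libraries and 2745747 and 2750317 in siCtrl libraries. MDM2 is known to use a second promoter inside the gene, which is the one with p53 sites, and which transcript start the profile used is not stated.

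DDB2 fell at the start and in the body alike. Its body signal was 94.6 to 105 in siSFPQ libraries and 147 and 157 in siCtrl libraries (log2 fold change -0.62, limma, adjusted p = 0.00756), and its start signal was 444 to 542 in siSFPQ libraries and 724 and 776 in siCtrl libraries (-0.59, limma, adjusted p = 0.0204). Leaving out the first siCtrl library ended the body call (adjusted p = 0.0578), and leaving out any library ended the start call (adjusted p = 0.0510 to 0.144). TP53I3 had log2 fold changes of -0.30 in the body (limma, adjusted p = 0.0418) and -0.38 at the start (limma, adjusted p = 0.0459), and leaving out any library ended both calls (adjusted p = 0.0833 to 0.187 in the body, 0.0589 to 0.201 at the start). BAX was called in neither window, with body signal of 315 to 362 in siSFPQ libraries and 350.3 and 365 in siCtrl libraries, which overlapped.

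TP63 had body signal of 14.2 and 13.8 in the siSFPQ-2 libraries and 9.31 and 3.58 in the siSFPQ-3 libraries, against 31.1 and 21.6 in the siCtrl libraries. The siSFPQ libraries were all lower in the gene body, with a log2 fold change of -1.51 (SE 0.38; limma, adjusted p = 0.0333). This call did not hold when either siCtrl library (adjusted p = 0.186 and 0.101) or either siSFPQ-2 library (adjusted p = 0.0683 and 0.0824) was left out. Its start signal overlapped between the groups, at 6.09 to 23.4 in siSFPQ libraries and 22.3 and 31.9 in siCtrl libraries, and was not called (log2 fold change -0.77, limma, adjusted p = 0.336). In TP63 the start signal was 1.56 to 2.00 times the body signal in siSFPQ libraries and 1.03 and 1.04 times in siCtrl libraries. The tallest gene bin of TP63 lay outside the start window in every library. Bin sizes are not stated. If bins widen with gene length, a narrow start peak would be averaged out most in TP63, the longest of the 9 genes. These ratios therefore cannot show whether TP63 has such a peak, nor be set beside those of PMAIP1. TP73 was called in neither window, at -0.42 in the body (limma, adjusted p = 0.249) and -1.07 at the start (limma, adjusted p = 0.104).

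**Figure D4:**
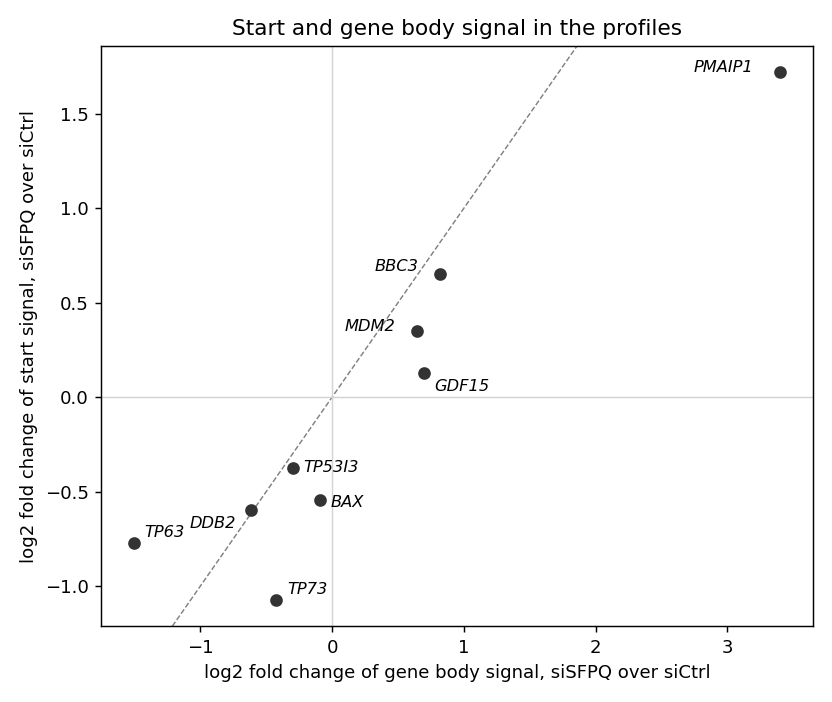
Log2 fold change of siSFPQ over siCtrl in the start window (y axis) against that in the gene body (x axis), with 1 point per gene and a dashed line where both are equal. PMAIP1 lay far below the line, at 3.40 in the body and 1.72 at the start, and DDB2 lay on it, at -0.62 and -0.59.

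Several of the 9 genes hold microRNA genes, which are of interest because the study addresses primary microRNA transcripts. TP63 hosts MIR944, GDF15 hosts MIR3189, and BBC3 overlaps MIR3191, on its own strand, and MIR3190, on the opposite strand. RefSeq mature sequences (GRCh38.p14) are given for 3 of them, with the seed, bases 2 to 8, in capitals, since the seed is what pairs with target RNAs.
hsa-miR-944: aAAUUAUUguacaucggaugag
hsa-miR-3189-3p: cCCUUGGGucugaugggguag
hsa-miR-3190-3p: uGUGGAAGguagacggccagaga

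The 3 seeds differ. MIR944 lies at chr3:189829922-189830009, inside the gene that fell most, and was not analysed here as a feature of its own. MIR3190 had 17.7 to 26.9 normalized reads in siSFPQ libraries and 12.2 and 12.8 in siCtrl libraries, and rose by a log2 fold change of 0.79 (limma, adjusted p = 0.0432). MIR3189 had 13.4 to 18.8 normalized reads in siSFPQ libraries and 12.0 and 16.6 in siCtrl libraries and was not called (0.13, limma, adjusted p = 0.771). MIR3191 was not called either (0.27, limma, adjusted p = 0.605). These features rest on few reads. Strand use in counting is not stated, so reads over a microRNA gene may be reads of the gene it overlaps, on either strand.

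Other genes of the p53 network were then described from lists, which were chosen with earlier results of these data known. Of 59 other p53 target genes in 3 lists, 53 were tested, 24 were called higher and 6 lower, and 23 were not called, with a median log2 fold change of 0.26. Over all tested features 24.8% were higher and 23.2% lower, with a median of -0.02. Without the second siCtrl library the count of higher genes was 14, and higher calls over all tested features fell as well, to 3622 beside 5400 with all libraries. With each other library left out the list had 16 to 26 higher genes.

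Of 16 apoptosis targets tested, 8 were higher and 3 lower, with a median log2 fold change of 0.39. The share higher was above the 24.8% over all tested features, and the share lower was below the 23.2%. DRAM1, a lysosomal protein linked to autophagy, had 1018 ± 243 normalized reads (SD, n = 4) with siSFPQ and 351 ± 49.5 (SD, n = 2) with siCtrl (log2 fold change 1.51, limma, adjusted p = 2.63e-06). TP53AIP1, a mitochondrial apoptosis protein, rose by 1.45 (limma, adjusted p = 8.53e-05), and TNFRSF10B, the TRAIL receptor DR5, rose by 1.11 (limma, adjusted p = 1.01e-04). PIDD1, the scaffold of a caspase-2 complex, fell by 0.83 (limma, adjusted p = 2.81e-04). TNFRSF6B, a decoy receptor for FAS ligand, fell by 1.68 (limma, adjusted p = 0.00127), but its place among p53 targets is doubtful, so its fall is that of a listed gene only. SIVA1 fell by 0.52 (limma, adjusted p = 0.00672), a call lost without the second siCtrl library (adjusted p = 0.0855).

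Of 19 arrest and feedback targets, 10 were higher (52.6%) and 1 lower (5.26%), beside 24.8% and 23.2% of all tested features. Their median log2 fold change was 0.36. SFN, the 14-3-3 sigma protein that holds cyclin-dependent kinase 1 in the cytoplasm, had 102 ± 22.2 normalized reads (SD, n = 4) with siSFPQ and 26.4 ± 0.203 (SD, n = 2) with siCtrl (log2 fold change 1.88, limma, adjusted p = 6.35e-05). The polo-like kinase genes PLK2 and PLK3 rose by 1.85 (limma, adjusted p = 1.18e-04) and 0.64 (limma, adjusted p = 0.00120). SESN2, a stress-induced inhibitor of mTORC1, fell by 0.30 (limma, adjusted p = 0.0201), a call that did not hold when the first siCtrl library (adjusted p = 0.123), the second (adjusted p = 0.111) or the first siSFPQ-2 library (adjusted p = 0.0597) was left out.

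Of 18 repair and metabolism targets tested, 6 were higher (33.3%) and 2 lower (11.1%), beside 24.8% and 23.2% of all tested features. Their median log2 fold change was 0.12. NADSYN1, which makes NAD, rose by 0.48 (limma, adjusted p = 0.00219), PSTPIP2, an adaptor of the actin cytoskeleton, by 0.52 (limma, adjusted p = 0.00308), and the ceramidase gene ACER2 by 0.58 (limma, adjusted p = 0.0115). The ACER2 call ended with the first siCtrl library left out (adjusted p = 0.0504) and with the second left out (adjusted p = 0.123). PGF, an angiogenic growth factor, fell by 1.24 (limma, adjusted p = 3.58e-04), and FDXR, a mitochondrial electron donor, fell by 0.38 (limma, adjusted p = 0.0183), a call that ended with the first siCtrl library left out (adjusted p = 0.238).

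Of 23 regulators of p53, 5 were higher (21.7%) and 2 lower (8.70%), neither share above that over all tested features, with a median log2 fold change of 0.05. HIPK2, a kinase that phosphorylates p53 in damaged cells, had 6543 ± 570.5 normalized reads (SD, n = 4) with siSFPQ and 2877 ± 70.9 (SD, n = 2) with siCtrl (log2 fold change 1.18, limma, adjusted p = 9.44e-06). PPP1R13L, which encodes the p53 inhibitor iASPP, rose by 0.94 (limma, adjusted p = 9.25e-05), and TP53BP1, a DNA repair scaffold, rose by 0.71 (limma, adjusted p = 3.57e-04). TP53RK, a kinase of the KEOPS complex, fell by 0.71 (limma, adjusted p = 0.00127). MDM4, the MDM2 partner that also restrains p53, fell by 0.46 (limma, adjusted p = 0.00747), a call that ended with the first siCtrl library left out (adjusted p = 0.113).

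**Figure D5:**
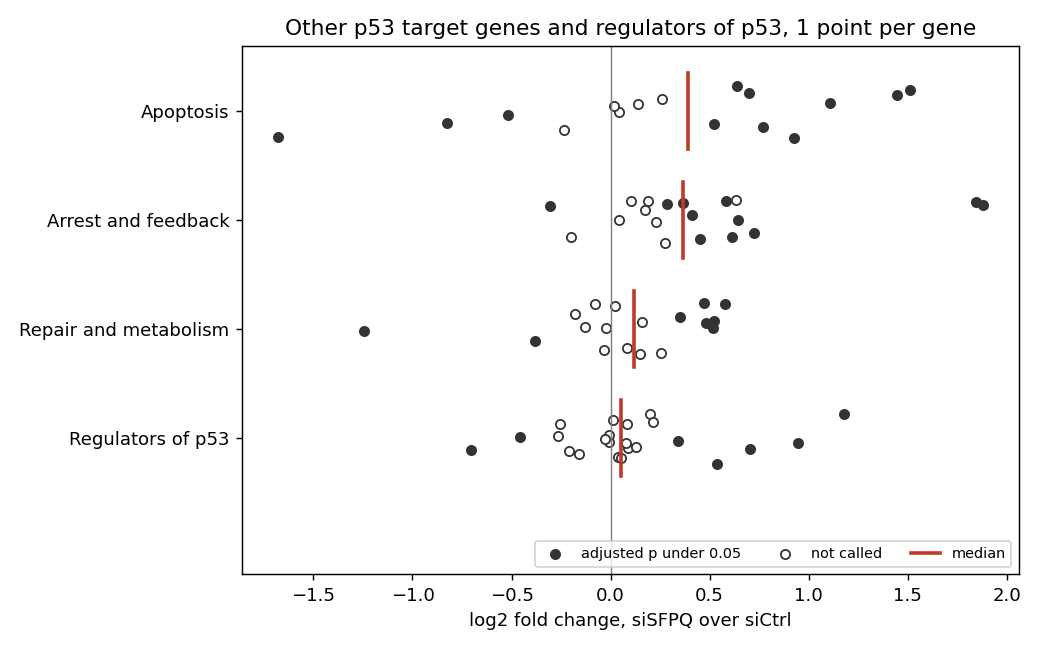
Log2 fold change of siSFPQ over siCtrl (x axis) for the other p53 targets in 3 lists and the regulators of p53, with 1 point per gene (filled where the adjusted p was under 0.05) and a bar at the median of each list. The medians were 0.39 for apoptosis, 0.36 for arrest and feedback, 0.12 for repair and metabolism and 0.05 for regulators.

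Genes known downstream of p63 and p73 were described beside the fall of both. Of 18 epidermal genes known as p63 targets, 8 were tested, 1 was higher and 1 lower (12.5% each, beside 24.8% higher and 23.2% lower over all tested features), with a median log2 fold change of 0.08. ITGB4, an integrin of hemidesmosomes, rose by 2.22 (limma, adjusted p = 3.05e-04), with 103 ± 26.6 normalized reads (SD, n = 4) with siSFPQ and 22.8 ± 13.1 (SD, n = 2) with siCtrl. The Notch ligand gene JAG2 fell by 0.85 (limma, adjusted p = 5.36e-04). Of 11 multicilia genes known as p73 targets, 8 were tested, 2 were higher and 1 lower, with a median of 0.14, so the calls in both lists were about as frequent as over all tested features or less so. The ciliary transcription factor RFX3 rose by 1.16 (limma, adjusted p = 4.47e-05) and the dynein gene DNAI1 by 1.28 (limma, adjusted p = 5.26e-04). MCIDAS, which starts the multiciliated programme, fell by 0.93 (limma, adjusted p = 0.00755), a call lost without the second siCtrl library (adjusted p = 0.113).

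The genes whose pattern over the 6 libraries was most like those of TP63 and PMAIP1 were found among 9759 genes at or above the median level, by the root mean square difference of centred log2 values. For TP63 these were ADH7, an alcohol dehydrogenase gene, GRIK1, a kainate receptor gene, and CNPY1, with differences of 0.19, 0.23 and 0.32. GRIK1 had 2377, 1915, 2184 and 1043 normalized reads in the siSFPQ libraries, against 8394 and 6308 in the siCtrl libraries. Its lowest library was the second siSFPQ-3 library, as for TP63, which the choice by likeness favours. For PMAIP1 these were PPP1R3B, a glycogen-targeting phosphatase subunit, PLA2G4C, a phospholipase, and EPAS1, the hypoxia factor HIF-2 alpha, with differences of 0.10, 0.10 and 0.11. EPAS1 had 1087, 1363, 1013 and 1346 normalized reads in the siSFPQ libraries, against 233 and 214 in the siCtrl libraries.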

How the data were processed

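PRO-seq of SBC-3 cells was analysed in 6 libraries, 2 each of siSFPQ-2, siSFPQ-3 and siCtrl. UMI-tools, Bowtie2, cutadapt 1.14, DESeq2 1.38.1 and SAMtools 1.3.1 are named, per the submitters' processing notes, with the builds dm6 and hg38. Neither their order, nor the role of dm6, nor the counted part of each gene or its strand is stated in these notes. The authors deposited signal per feature as normalized reads, from which whole reads were recovered in 100.0% of values at a tolerance of 0.1 read, and 240 of 26067 lines, which repeated a transcript, were dropped. The authors' deposited table also gave log2 fold changes and adjusted p-values, set beside the values computed here. The authors deposited signal in 500 bins per gene and library; its scaling and bin sizes are not stated. The test statistic (score) in the authors' deposited table was not used. Depth limits features of few reads most, and intervals cover the spread between libraries.

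limma 3.58.1 (R 4.3.3, with trend) tested log2(value + 1) in 1 fit of 3 groups, at an adjusted p of 0.05. Profile windows used a pseudocount of 0.156, the 10th percentile of window means. Alternatives were other pseudocounts, filters and scalings, edgeR 4.0.16 and DESeq2 1.42.0 on whole reads, 2 groups, the replicate number as a block and each library left out, where a lone library of a group was assumed to vary like the other groups. Fits were tested on simulated data with 1 fixed spread and the same changes for both siRNAs. That setting is simpler than these libraries, and no result here rests on it. Median-of-ratios scaling and every alternative for the start window signal were added after seeing the data. The members and lists were chosen with earlier results of these data known. Genes named were the 9 members, up to 3 genes per list and direction with the smallest p, SFPQ, overlapping and hosted genes, and for TP63 and PMAIP1 the 3 genes most alike. Markers were named from those in the table. Libraries of 1 group differed beyond counting noise (chi-square per degree of freedom 11.4 for siSFPQ-2, 23.6 for siSFPQ-3 and 10.7 for siCtrl), so each was counted as a library of its own. The labels name no batch.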

Additional observations from a re-analysis of the deposited data

How the results depend on the processing

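Over the alternatives run, PMAIP1, BBC3, DDB2 and TP63 kept their direction and their call for siSFPQ against siCtrl, at 2.30 to 2.40, 0.61 to 0.78, -0.74 to -0.55 and -2.33 to -1.54. All features called numbered 5400 higher and 5044 lower, beside 5521 and 5010 with edgeR and 4716 and 4084 with DESeq2 on whole reads. Leaving out each library gave 3 to 4 members higher and 2 to 4 lower, 14 to 26 other p53 targets higher and 4 to 6 lower. With siSFPQ-2 these ranges were 2 to 3 higher and 1 to 4 lower, with siSFPQ-3 they were 3 to 4 and 3 to 4, and between the siRNAs 0 higher and 0 to 1 lower. The replicate numbers pair the siRNA libraries only as a hint from the data (correlation of deviations 0.38 between siSFPQ-2 and siSFPQ-3, 0.053 and 0.059 with siCtrl). With the replicate block, members higher with siSFPQ-2 numbered 4, members lower between the siRNAs numbered 1 (TP63, -0.91, adjusted p = 0.0213), and members with a lower start-to-body ratio numbered 0. That number was also 0 at the 1st percentile pseudocount and with a window of 30 bins, 2 at the 50th percentile, and 0 without each library. Members with lower body signal numbered 0 to 2 without each library, and those higher 3 to 4. Between the siRNAs the sign turned for TP73 (-0.07), to 0.28 without siSFPQ-2 replicate 1 and 0.21 without siSFPQ-3 replicate 2 (range -0.41 to 0.28), for BBC3 (0.06), to -0.0070 with equal totals and -0.11 without siSFPQ-3 replicate 2 (-0.11 to 0.23), and for BAX (0.07), to -0.00076 without siSFPQ-2 replicate 2 (-0.00076 to 0.14). The DDB2 start-to-body ratio (0.02) turned to -0.016 with 30 bins and to -0.073, -0.0020 and -0.029 without siCtrl replicate 1, siSFPQ-2 replicate 1 and siSFPQ-3 replicate 2 (-0.073 to 0.12). That of TP53I3 (-0.08) turned to 0.026 with 3 bins, and the MDM2 start signal (0.35) to -0.011. None of these turned values was called, and the cause was not tested. Over all features, leaving out 1 library brought lower calls down to 2463 for siSFPQ, 1792 for siSFPQ-2 and 2082 for siSFPQ-3, higher calls with siSFPQ-2 to 2914, body calls to 2561 higher and 317 lower (5815 and 2851 with all libraries), and ratio calls to 0 in both directions (119 higher and 408 lower). Ratio calls numbered 313 higher and 2442 lower at the 50th percentile pseudocount. Between the siRNAs (17 higher and 5 lower) leaving out 1 library gave 0 to 213 higher and 0 to 95 lower, and the replicate block 572 and 188.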
